A study of Mus musculus with 6 samples.

Results

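The genes described here are 41 genes of the integrated stress response and the unfolded protein response, found by symbol among the 22057 genes of the deposited table of normalized read counts. All 41 were found, and all 41 passed the filter on low values (a mean of at least 10 normalized counts over the 6 libraries), which 17068 genes of the table passed. They fall into 2 arms. The ATF4 arm has 21 genes, which are the transcription factor ATF4 with its partners, regulators and targets, among them the enzymes of serine, mitochondrial folate, asparagine and proline synthesis. The ER arm has 20 genes, which are the sensors, chaperones and degradation factors of the endoplasmic reticulum (ER). The PDGFA group is cultured neural progenitor cells of p53-null mice 62, 68 and 69 after 4 days in medium with platelet-derived growth factor A (n = 3). The EF group, the control, is cells of the same 3 mice kept for 4 days with epidermal and fibroblast growth factors plus heparin (n = 3). The genotype is the same in both groups, and the labels do not say which part of Trp53 is missing. One set of factors replaced another, so each comparison is of the media as a whole.

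Cells answer amino acid shortage and protein misfolding through kinases that phosphorylate the translation factor eIF2alpha. Most translation then falls, while ATF4 protein is made in larger amounts and switches on genes for amino acid synthesis and uptake. Protein misfolding in the ER is sensed by PERK, IRE1 and ATF6, and IRE1 and ATF6 switch on chaperones through the factor XBP1 and through ATF6 itself. Oligodendrocytes, which make large amounts of membrane and secreted protein, are a cell type in which this ER response has been much studied.

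Promoter stretches of 7 genes are shown because the known elements of the 2 arms can be read in them and because these genes changed or differed widely among libraries in the results below. Each stretch is the 250 bases before the RefSeq gene start (GRCm38.p6), read 5′ to 3′ on the gene's own strand, with motif matches in capitals. Asns lies at chr6:7693210-7693459, minus strand, Chac1 at chr2:119350992-119351241, plus strand and Nupr1 at chr7:126625471-126625720, minus strand, and their capitals mark the C/EBP-ATF response element TGATGNAA on either strand, the element that ATF4 and C/EBP partners are known to bind.
Asns: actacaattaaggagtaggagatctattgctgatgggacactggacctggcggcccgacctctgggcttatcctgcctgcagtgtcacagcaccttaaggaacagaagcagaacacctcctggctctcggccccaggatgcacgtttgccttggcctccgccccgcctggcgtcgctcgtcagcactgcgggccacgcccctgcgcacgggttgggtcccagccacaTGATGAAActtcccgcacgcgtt
Chac1: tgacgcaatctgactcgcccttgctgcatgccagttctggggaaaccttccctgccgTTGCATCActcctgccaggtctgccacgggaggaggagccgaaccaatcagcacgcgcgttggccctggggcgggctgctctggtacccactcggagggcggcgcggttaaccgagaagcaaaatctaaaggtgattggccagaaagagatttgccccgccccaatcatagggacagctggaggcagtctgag
Nupr1: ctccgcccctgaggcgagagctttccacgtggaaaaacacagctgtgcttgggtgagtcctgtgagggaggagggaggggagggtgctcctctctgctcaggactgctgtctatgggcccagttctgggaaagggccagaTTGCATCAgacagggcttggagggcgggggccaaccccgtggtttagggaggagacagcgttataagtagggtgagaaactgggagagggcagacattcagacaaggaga
Hspa5 lies at chr2:34771840-34772089, plus strand, Hsp90b1 at chr10:86705445-86705694, minus strand and Pdia6 at chr12:17266339-17266588, plus strand, and their capitals mark the ER stress response element, CCAAT and CCACG with any 9 bases between them, on either strand, which ATF6 is known to bind with NF-Y. Herpud1 lies at chr8:94386179-94386428, plus strand, and its capitals mark first a C/EBP-ATF element and then the shorter ER stress response element II, ATTGG and CCACG with any 1 base between them.
Hspa5: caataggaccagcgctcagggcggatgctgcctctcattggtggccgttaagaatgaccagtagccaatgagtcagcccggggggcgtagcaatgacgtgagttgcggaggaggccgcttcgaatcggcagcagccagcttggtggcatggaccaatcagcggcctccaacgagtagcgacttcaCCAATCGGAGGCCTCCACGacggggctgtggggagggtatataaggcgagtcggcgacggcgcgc
Hsp90b1: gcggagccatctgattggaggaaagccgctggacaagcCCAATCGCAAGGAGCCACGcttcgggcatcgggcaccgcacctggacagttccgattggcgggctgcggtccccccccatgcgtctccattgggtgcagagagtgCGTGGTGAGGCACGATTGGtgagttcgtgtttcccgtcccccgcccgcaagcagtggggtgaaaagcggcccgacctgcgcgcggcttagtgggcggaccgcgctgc
Pdia6: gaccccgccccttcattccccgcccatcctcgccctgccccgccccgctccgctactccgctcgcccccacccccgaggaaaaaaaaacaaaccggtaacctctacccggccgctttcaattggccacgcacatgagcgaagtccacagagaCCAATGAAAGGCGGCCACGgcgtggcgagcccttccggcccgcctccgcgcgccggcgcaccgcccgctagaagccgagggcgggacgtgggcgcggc
Herpud1: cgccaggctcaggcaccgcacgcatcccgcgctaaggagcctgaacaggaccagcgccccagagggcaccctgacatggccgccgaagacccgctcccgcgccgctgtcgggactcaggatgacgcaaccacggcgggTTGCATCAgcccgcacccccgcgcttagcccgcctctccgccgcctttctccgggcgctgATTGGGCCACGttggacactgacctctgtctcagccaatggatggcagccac

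A RefSeq promoter of 250 bases before and 50 after the gene start was found for 37 of the 41 genes, 20 in the ATF4 arm and 17 in the ER arm. Those of Atf6, Hyou1, Manf and Ppp1r15b were not matched. The C/EBP-ATF element was present in 5 of the 20 ATF4-arm genes (Asns, Chac1, Nupr1, Pycr1 and Trib3), in 1 of the 17 ER-arm genes (Herpud1) and in 4.51% of 27025 genes with a promoter. The ER stress response element was present in 7 of the 17 ER-arm genes (Calr, Canx, Creld2, Dnajc3, Hsp90b1, Hspa5 and Pdia6), in 0 of the 20 ATF4-arm genes and in 0.137% of all genes with a promoter. Hsp90b1 held it at 2 places, beginning 212 and 107 bases before the start. Element II was in Herpud1 and Dnajb11 and in 0.0444% of all genes, and no match overlapped another. The element TGACGTGG was in 0 of these 37 genes and in 0.714% of all genes. These are matches of letters and not measured binding.

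Before the groups are compared, 1 library is described apart. The EF library of mouse 62 held at least 2-fold more than both other EF libraries for 13 of the 21 ATF4-arm genes, where 8.14% of all tested genes did so. In the ER arm this held for 1 of 20 genes, Herpud1, while 14 of the 20 had their lowest EF value in the library of mouse 62, against 42.0% of all tested genes. There 3 ER-arm genes were at least 2-fold below both others, where 4.55% of all tested genes were. In the ATF4 arm 19 of 21 genes had their highest EF value in EF 62, against 34.4% of all tested genes. The median difference between EF 62 and the mean of EF 68 and EF 69 was 1.30 (log2) in the ATF4 arm, -0.73 in the ER arm and -0.069 over all tested genes. No member was 2-fold above or below both others in EF 68 (4.1% and 1.14% of all tested genes) or EF 69 (1.76% and 8.09%), and in PDGFA 1 member was so, Nupr1 in PDGFA 62, at single-digit read counts. By this 2-fold rule the PDGFA library of mouse 62 did not share the pattern, and smaller shifts in it were not counted. Of the ATF4-arm genes called lower below, Atf4, Psat1, Shmt2, Mthfd2, Mthfd1l, Asns and Aldh18a1 had their highest PDGFA value there. Trib3 and Nupr1 did not. Asns, for example, read 1188 in PDGFA 62, against 904 and 867 in the others. Psph, which was not called, was lowest there (1224, against 1278 and 1324). Fold changes and counts of calls are therefore also given without EF 62 below, which leaves only EF 68 and EF 69 in that group. EF 68 and EF 69 differed in the summed level of oligodendrocyte precursor markers (248895 and 112114). EF 62 was singled out on the values of these same genes. Leaving it out narrows the EF spread of genes for which it stood apart. Calls without it are therefore descriptive and no independent support.

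**Figure D1:**
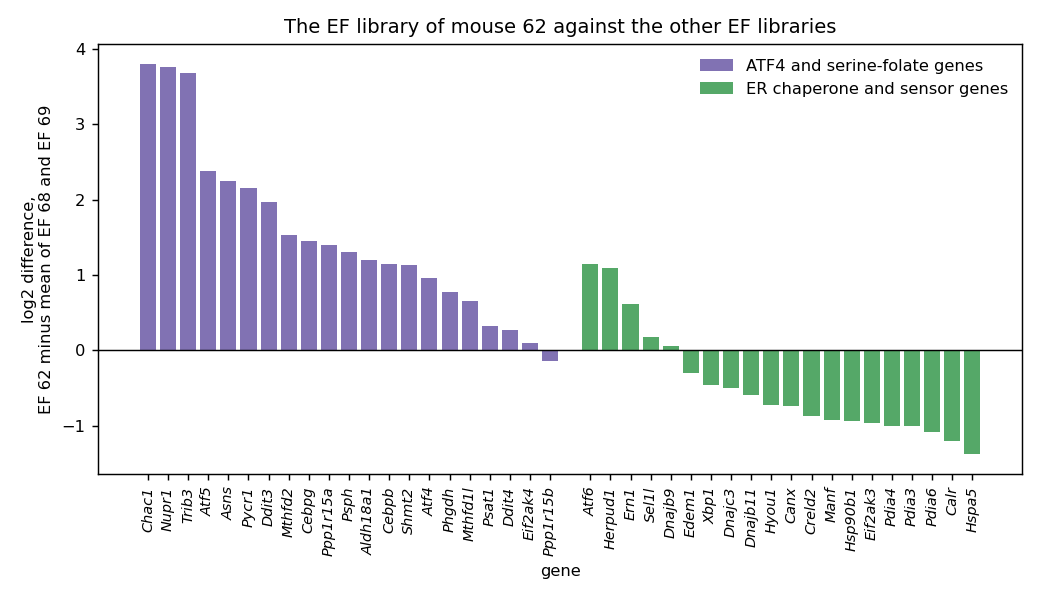
Difference in log2(normalized count + 1) between the EF library of mouse 62 and the mean of EF 68 and EF 69, 1 bar per gene, ordered within each arm. Chac1, Nupr1 and Trib3 stand highest at 3.81, 3.76 and 3.68, and Hspa5 lowest at -1.38.

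The gene with the widest gap was Chac1, an enzyme that degrades glutathione and a target of ATF4. It read 2195 normalized counts in EF 62, against 175 in EF 68 and 139 in EF 69. Trib3, a pseudokinase that is induced by ATF4 and restrains it, read 1559 in EF 62, against 120.5 in EF 68 and 120.2 in EF 69. Asns, asparagine synthetase, read 9687 in EF 62, against 2073 and 1999 in EF 68 and EF 69. Thus the other 2 EF libraries lay close together for these genes while EF 62 stood 4.67-fold (Asns) to 12.9-fold (Trib3) above the higher of them. Hspa5, the ER chaperone BiP, was the other way round, with 5991 in EF 62 and 14919 and 16246 in EF 68 and EF 69. The median SD over the 3 EF libraries was 0.76 (log2) in the ATF4 arm and 0.53 in the ER arm, against 0.38 over all tested genes. Over the 3 PDGFA libraries it was 0.16, 0.072 and 0.17. Summed over 8 markers of dividing cells, EF 62 held 44228 normalized counts, against 69350 in EF 68 and 95243 in EF 69. The part of that difference in the values of the stress genes was not tested.

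Cells in PDGFA had less mRNA for the mitochondrial folate enzymes Mthfd1l, Mthfd2 and Shmt2 and for ATF4 and several of its targets than cells in EF. Of the 21 ATF4-arm genes 9 fell and 0 rose in limma at an adjusted p below 0.05, where 18.0% of all tested genes fell and 21.8% rose. At an unadjusted p below 0.05, 11 members were lower and 0 higher, where 22.8% and 26.2% of all tested genes were. edgeR's quasi-likelihood test called 10 lower and 0 higher, where it called 19.1% and 21.0% of all tested genes, and DESeq2 9 lower and 0 higher, where it called 21.9% and 23.1%. The calls of edgeR added Chac1. Those of DESeq2 added Atf5 and Cebpg and lacked Trib3 and Nupr1, to which it gave no adjusted p-value. The median log2 fold change was -1.01 in this arm and -0.0095 over all tested genes. The groups did not overlap in 14 members, all lower in PDGFA, where 26.3% of all tested genes were so. In these bulk samples, fewer cells of a type and less RNA per cell cannot be told apart. All 8 markers of dividing cells fell as well, with a summed level of 492 to 809 in PDGFA and 44228 to 95243 in EF, and their part in the falls was not tested.

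**Figure D2:**
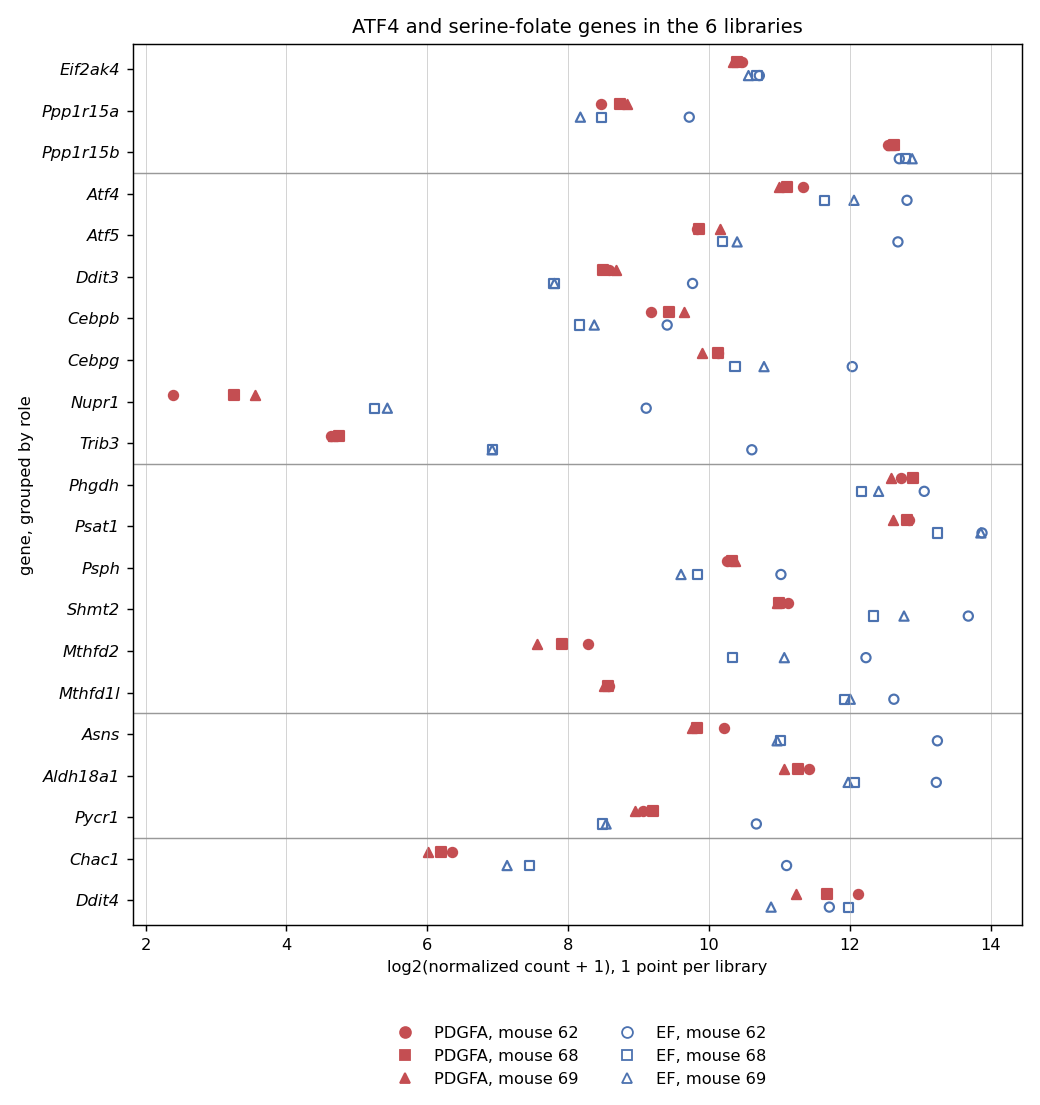
Log2(normalized count + 1) of the 21 ATF4-arm genes, 1 point per library, with PDGFA filled and EF open and the mouse by shape. Circles of EF 62 lie to the right of the other EF points in 19 of the 21 rows, and the PDGFA points of Mthfd1l, Mthfd2 and Shmt2 lie left of all EF points.

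All 3 of the mitochondrial folate enzymes among the members fell. Outside the members, Aldh1l2 was not called (log2 fold change -0.82, limma adjusted p = 0.416). Without EF 62 its log2 fold change was 0.17 (limma adjusted p = 0.555). Mthfd2l was called lower (-0.43, limma adjusted p = 0.0429), but not with the mouse as a block (0.122). Both were named after their values were seen. Mthfd1l (chromosome 10, 3973118 to 4167081), which makes formate from the folate carrier in mitochondria, read 380.2, 379 and 365 in PDGFA 62, 68 and 69, against 6311, 3871 and 4109 in EF 62, 68 and 69. All PDGFA values lay far below all EF values, and the log2 fold change was -3.63 (SE 0.20, limma adjusted p = 2.53e-05). Mthfd2 (chromosome 6, 83305691 to 83325908), the enzyme before it in the same pathway, read 311, 239 and 187 in PDGFA, against 4795, 1289 and 2146 in EF. Its log2 fold change was -3.29 (SE 0.45, limma adjusted p = 0.00117), with values of -3.94, -2.43 and -3.51 within mice 62, 68 and 69. Shmt2 (chromosome 10, 127517123 to 127522444), which hands a carbon of serine to folate, read 2232, 2029 and 1991 in PDGFA, against 13130.4, 5172 and 6974 in EF. The groups again did not overlap, and the log2 fold change was -1.90 (SE 0.31, limma adjusted p = 0.00267). These 3 genes and Psat1 kept their calls whichever 1 library was left out, and without EF 62 the log2 fold changes were -3.41, -2.79 and -1.53 for Mthfd1l, Mthfd2 and Shmt2.

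The 3 enzymes that make serine from a glycolytic intermediate did not move as one. Psat1, the aminotransferase of the pathway's middle step (chromosome 19, 15904678 to 15947337), read 7339.9, 7164 and 6264 in PDGFA, against 15026, 9721 and 14857 in EF. It fell, with a log2 fold change of -0.91 (SE 0.20, limma adjusted p = 0.00982), or -0.80 without EF 62. Phgdh, the first enzyme, read 6788, 7593 and 6124 in PDGFA, inside the EF values of 8509.7, 4588 and 5431. Psph, the phosphatase of the last step, read 1224, 1278 and 1324 in PDGFA, inside the EF values of 2076, 912 and 776. Neither passed the test (limma adjusted p = 0.547 and 0.732), and for both only the EF library of mouse 62 lay above the PDGFA values. Without EF 62 both were higher in PDGFA, by 0.45 (limma adjusted p = 0.0426) for Phgdh and 0.60 (limma adjusted p = 0.0118) for Psph. Over the alternatives these adjusted p-values reached 0.995 and 0.996, and those without EF 62 were the lowest. About 10.4% of the annotated exon bases of Psph are shared with Cct6a on the opposite strand, and the library kit does not mark strand.

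Atf4 itself (chromosome 15, 80255184 to 80257541) read 2591, 2209.6 and 2028 in PDGFA, against 7181, 3179 and 4262 in EF. It was lower in all 3 mice, with a log2 fold change of -1.02 (SE 0.28, limma adjusted p = 0.0251), or -0.70 without EF 62. The call was lost without PDGFA 68 (limma adjusted p = 0.0782) or PDGFA 69 (0.0879), and over the alternatives its adjusted p lay between 0.00265 and 0.0879. ATF4 is regulated mainly by translation, so its mRNA is not a measure of its protein. Trib3 read 23.8, 25.8 and 24.2 in PDGFA, against 1559, 120.5 and 120.2 in EF, a log2 fold change of -3.47 (SE 0.93, limma adjusted p = 0.0217). Nupr1, a small stress-induced chromatin protein, read 4.24, 8.59 and 10.8 in PDGFA, against 551, 37.2 and 42.2 in EF, a log2 fold change of -3.53 (limma adjusted p = 0.027). Nupr1 rests on 26 reads in all 3 PDGFA libraries. Without EF 62 the log2 fold changes of Trib3 and Nupr1 were -2.25 and -2.27, smaller falls than with it, and the groups did not overlap either way. Both lost their calls when any 1 of the PDGFA libraries was left out, with limma adjusted p of 0.0588 to 0.0664 for Trib3 and 0.0617 to 0.0847 for Nupr1. Over the alternatives the ranges were 0.00134 to 0.0664 and 0.00924 to 0.0847, and DESeq2 gave no adjusted p-value for either. With 1 PDGFA library left out the log2 fold changes were -3.51 to -3.45 for Trib3 and -3.77 to -3.19 for Nupr1. The SD of Trib3 was 0.059 (log2) in PDGFA and 2.13 in EF.

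Asns (chromosome 6, 7675169 to 7693254) read 1188, 904 and 867 in PDGFA, against 9687, 2073 and 1999 in EF. Its log2 fold change was -1.81 (SE 0.57, limma adjusted p = 0.0388) and -1.06 without EF 62. Aldh18a1, the enzyme that starts proline synthesis, read 2731, 2467 and 2140.4 in PDGFA, against 9580.4, 4292 and 4023 in EF, a log2 fold change of -1.17 (SE 0.32, limma adjusted p = 0.0241), or -0.77 without EF 62. Every PDGFA value of these 2 genes lay below every EF value. Both lost their calls when any 1 of the PDGFA libraries was left out, with limma adjusted p of 0.0714 to 0.113 for Asns and 0.0511 to 0.085 for Aldh18a1, which are also the highest over the alternatives. Their log2 fold changes in those fits were -1.95 to -1.72 and -1.26 to -1.08. Pycr1, which completes proline synthesis in mitochondria, read 536, 586 and 495 in PDGFA, against 1629.9, 359 and 371 in EF. It lay above EF 68 and EF 69 and below EF 62, with a log2 fold change of -0.16 (limma adjusted p = 0.836) that was 0.56 without EF 62 (limma adjusted p = 0.0259, with a range of 0.0259 to 0.922).

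The values of other regulators also changed without EF 62. Ddit3, which encodes CHOP, a factor linked to cell death under ER stress, read 381, 358 and 409 in PDGFA, against 869.6, 222 and 222 in EF. The PDGFA values lay between those of EF 62 and the other 2 EF libraries, and the log2 fold change was 0.13 (SE 0.51, limma adjusted p = 0.863). Without EF 62 it was 0.78 (limma adjusted p = 0.0107, between 0.0107 and 0.938 over the alternatives). About 10.9% of its annotated exon bases are shared with other entries, among them a methionyl-tRNA synthetase gene on the opposite strand. Cebpb, a dimer partner of ATF4, read 579, 689 and 796 in PDGFA, against 677, 285 and 329.8 in EF, with a log2 fold change of 0.77 (limma adjusted p = 0.103). Without EF 62 it was 1.15 (limma adjusted p = 0.00425, with a range of 0.00425 to 0.436), and 20.7% of its exon bases are shared with Tmem189 on the opposite strand. Cebpg, another partner, read 1115, 1116 and 956 in PDGFA, against 4191, 1322 and 1758 in EF. It was lower in all 3 mice and did not pass (log2 fold change -1.01, limma adjusted p = 0.0735). With the mouse as a block it passed (0.0437), as it did without EF 62 (0.0422) or EF 68 (0.0281). DESeq2 also called Cebpg lower (adjusted p = 0.013), and the range was 0.013 to 0.186. Atf5, a factor related to ATF4, read 906, 927 and 1134 in PDGFA, against 6569, 1172 and 1349 in EF, with a log2 fold change of -1.15 (limma adjusted p = 0.166) that was -0.35 without EF 62. DESeq2 called Atf5 lower (adjusted p = 0.0176, with a range of 0.0176 to 0.295).

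Chac1 read 80.6, 72.6 and 63.6 in PDGFA, against 2195, 175 and 139 in EF. The groups did not overlap, and it was not called (log2 fold change -2.37, SE 0.95, limma adjusted p = 0.0844). It passed with the mouse as a block (0.0384), without EF 62 (-1.11, limma adjusted p = 0.0142) and without EF 69 (0.0475), with a range of 0.0142 to 0.19. edgeR also called Chac1 lower (adjusted p = 0.0368), and DESeq2 gave it no adjusted p-value. Ddit4, an inhibitor of mTORC1 signalling, varied as much within the groups as between them, at 4420.2, 3278 and 2398 in PDGFA against 3344, 4039.7 and 1884 in EF. Its log2 fold change was 0.15, or 0.24 without EF 62, and it passed the test in neither fit. The kinase and phosphatase genes of eIF2alpha in this arm did not pass the test. Eif2ak4, the amino acid sensor GCN2, averaged 1356 ± 60.5 in PDGFA and 1609.6 ± 89.5 in EF, and Ppp1r15b, the constitutive phosphatase subunit, 6119.6 ± 195 and 7090.1 ± 449.6 (SD, n = 3 each). Both were lower in all 3 mice (limma adjusted p = 0.157 and 0.21), with log2 fold changes of -0.25 and -0.21, or -0.22 and -0.26 without EF 62. Ppp1r15a, the inducible subunit GADD34, read 354, 426 and 455 in PDGFA, against 842, 354 and 288 in EF, and had a log2 fold change of -0.11 that was 0.36 without EF 62.

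With EF 62 left out, 11 ATF4-arm genes fell and 5 rose in limma, where 22.6% of the genes tested in that fit fell and 25.3% rose. The 5 were Ddit3, Cebpb, Phgdh, Psph and Pycr1, and the 11 were the 9 called with all libraries together with Cebpg and Chac1. The groups then did not overlap in 14 lower and 6 higher members, where 34.2% and 35.1% of all tested genes were so. With the mouse as a block 11 fell and 0 rose, also with Cebpg and Chac1 added, where 15.4% and 18.8% of all tested genes did.

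**Figure D3:**
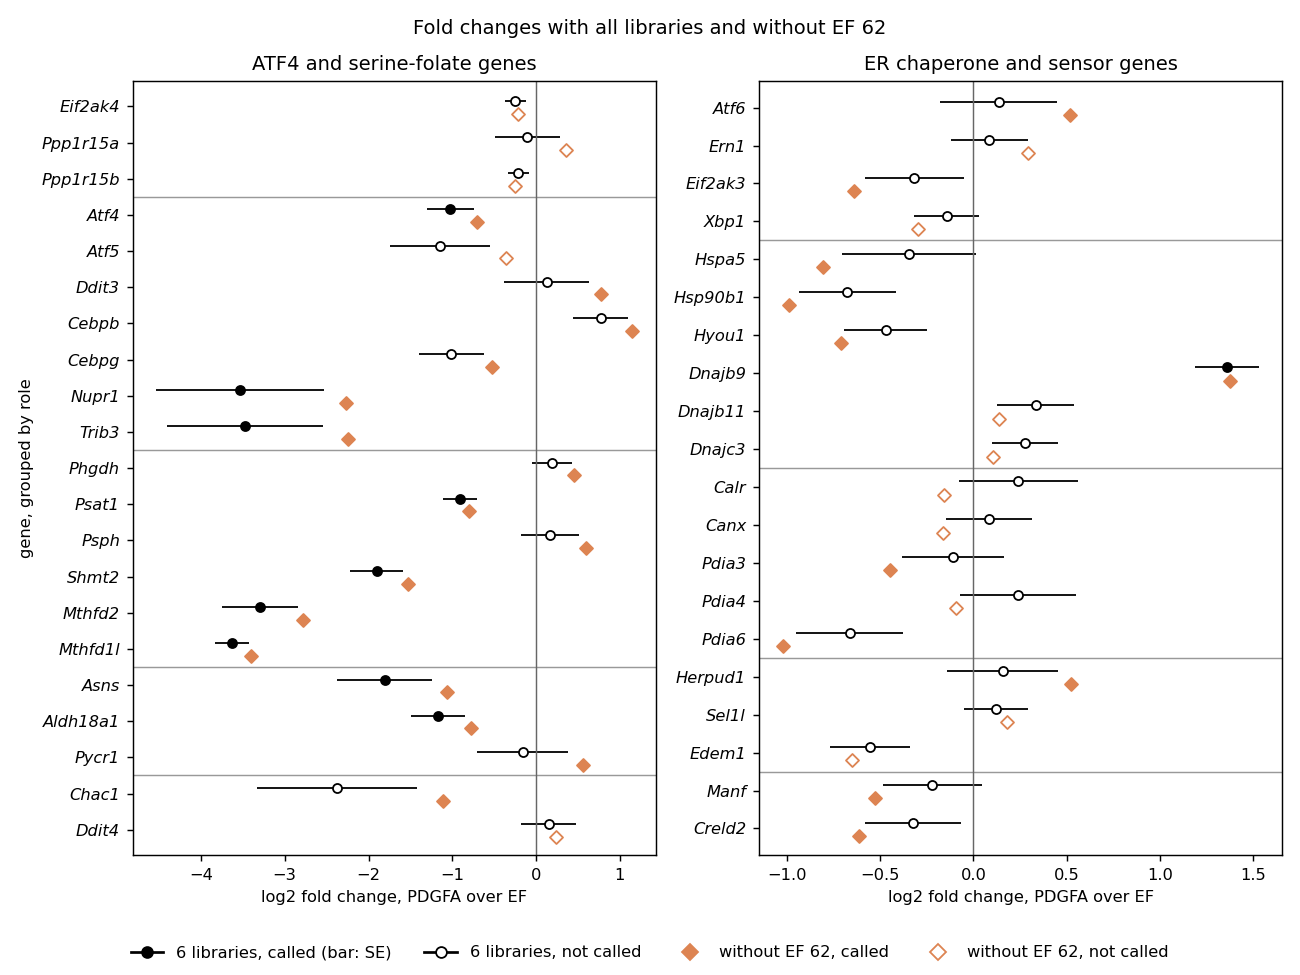
Log2 fold change, PDGFA over EF, of the 41 genes with all 6 libraries (circles, bars are SE) and without EF 62 (diamonds), with filled symbols called in limma at an adjusted p below 0.05. The panels have different horizontal scales. In 20 of the 21 ATF4-arm rows the diamond lies to the right of the circle, and those of Hspa5, Hsp90b1 and Pdia6 lie to the left.

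In the ER arm 1 gene of 20 rose and 0 fell in limma, where 21.8% of all tested genes rose and 18.0% fell. Dnajb9 (chromosome 12, 44205559 to 44210326), a cochaperone of BiP also known as ERdj4, read 997, 1154 and 1363 in PDGFA, against 465, 479.6 and 415 in EF. All PDGFA values lay above all EF values, and it rose by 1.36 on the log2 scale (SE 0.17, limma adjusted p = 0.000782), a mean 2.58-fold higher, or by 1.38 without EF 62. It kept its call whichever 1 library was left out, without both libraries of mouse 68 and in the fit blocked by mouse, with a range of 1.97e-10 to 0.0207. At an unadjusted p below 0.05, 2 of the 20 were lower, where 22.8% of all tested genes were. edgeR called 0 lower, where it called 19.1% of all tested genes, and DESeq2 called 3 (Hsp90b1, Pdia6 and Edem1), where it called 21.9%. The median log2 fold change was -0.014, or -0.23 without EF 62. The groups did not overlap in 1 member that was higher, where 29.2% of all tested genes were so, and in 2 that were lower, Hsp90b1 and Edem1, where 26.3% were.

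**Figure D4:**
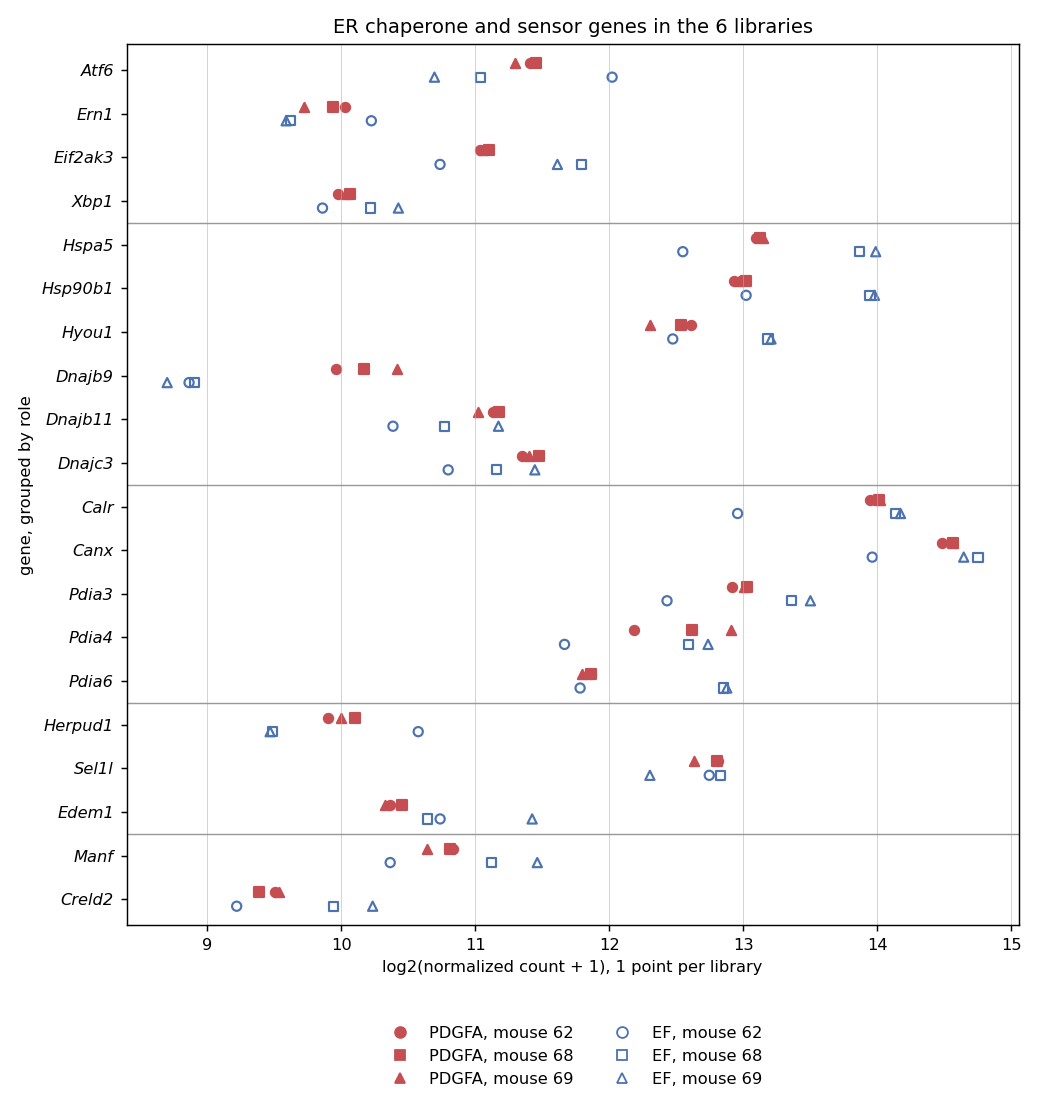
Log2(normalized count + 1) of the 20 ER-arm genes, 1 point per library, with PDGFA filled and EF open and the mouse by shape. The PDGFA points of a gene mostly lie close together, and for the chaperones Hspa5, Calr and Pdia6 the circle of EF 62 lies left of the other EF points.

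Hspa5 (chromosome 2, 34771970 to 34777547) read 8748, 8942 and 9067 in PDGFA, against 5991, 14919 and 16246 in EF. The 3 PDGFA values lay between EF 62 and the other EF libraries, and the log2 fold change was -0.34 (SE 0.36, limma adjusted p = 0.475). Without EF 62 it was -0.80 (limma adjusted p = 0.00227, between 0.00227 and 0.868 over the alternatives). Hsp90b1, the ER form of HSP90 known as GRP94, read 7814, 8289 and 8028 in PDGFA, against 8312, 15777 and 16141 in EF, with a log2 fold change of -0.68 (SE 0.26, limma adjusted p = 0.0742). Without EF 62 it was -0.99 (limma adjusted p = 0.000943, with a range of 0.000943 to 0.33). About 15.7% of its exon bases are shared with other annotated genes. Hyou1, a large chaperone of the HSP70 family, read 6264.5, 5926 and 5067 in PDGFA, against 5688, 9308 and 9454 in EF, with a log2 fold change of -0.47 that was -0.71 without EF 62. Dnajb11 and Dnajc3, 2 further BiP cochaperones, averaged 2213 ± 122 and 2725 ± 119 in PDGFA and 1798 ± 487 and 2286 ± 503 in EF, with limma adjusted p of 0.23 and 0.255. Their log2 fold changes were 0.33 and 0.28, or 0.14 and 0.11 without EF 62. Leaving out EF 69 alone gave Dnajb11 a call (limma adjusted p = 0.0367, with a range of 0.0367 to 0.554).

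The lectin chaperones and disulfide isomerases also had their lowest EF value in EF 62, and none of the 5 passed the test (limma adjusted p = 0.105 to 0.797). Calr, the calcium-binding chaperone calreticulin, read 15803, 16555 and 16645 in PDGFA, against 7954, 17986 and 18469 in EF. Canx, its membrane-bound relative calnexin, averaged 23774 ± 776 in PDGFA and 23054 ± 6223 in EF. The log2 fold changes of Calr and Canx were 0.24 and 0.084, or -0.16 for both without EF 62. Pdia6, a disulfide isomerase, read 3730.2, 3733 and 3559 in PDGFA, against 3522, 7406 and 7519.7 in EF. The PDGFA values of Pdia6 were close to that of EF 62, and the log2 fold change was -0.66 (SE 0.29, limma adjusted p = 0.105). It became -1.02 without EF 62 (limma adjusted p = 0.000658, with a range of 0.000658 to 0.407). Pdia3, which works with Calr and Canx on glycoproteins, averaged 8117 ± 330.1 in PDGFA and 9210.0 ± 3239 in EF, with a log2 fold change of -0.11 that was -0.44 without EF 62. Pdia4 averaged 6214 ± 1511 in PDGFA and 5415 ± 1904 in EF, and its log2 fold change of 0.24 was -0.092 without EF 62.

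The 3 sensors and Xbp1 did not pass the test (limma adjusted p = 0.374 to 0.767). Their log2 fold changes lay between -0.32 and 0.14, and without EF 62 they were 0.52 for Atf6, 0.29 for Ern1, -0.64 for Eif2ak3 and -0.30 for Xbp1. Atf6, the membrane-bound factor cut in the Golgi, averaged 2682 ± 149 in PDGFA and 2640.2 ± 1333 in EF, and Ern1, which encodes IRE1, 957 ± 102 and 917 ± 242. Atf6 and Ern1 differed from the chaperones in that their highest EF value was in EF 62. Atf6 read 4157 there, against 2105 and 1658 in EF 68 and EF 69, and Ern1 read 1196, against 786 and 770. Eif2ak3, which encodes PERK, averaged 2141 ± 52.8 in PDGFA and 2794 ± 963 in EF. Xbp1 read 1007, 1071 and 1048 in PDGFA, against 929, 1192 and 1376 in EF, with a log2 fold change of -0.14 (SE 0.17, limma adjusted p = 0.543). XBP1 acts through a spliced form, and counts per gene do not separate it from the unspliced one. Herpud1, an ER degradation factor, read 957, 1097 and 1022 in PDGFA, against 1525, 716 and 708 in EF, a pattern across EF like that of the ATF4 arm. Sel1l, the partner of the degradation ligase HRD1, averaged 6894 ± 477 in PDGFA and 6401 ± 1184 in EF, with a log2 fold change of 0.12, or 0.18 without EF 62. Edem1, which draws misfolded glycoproteins to degradation, averaged 1335 ± 60.4 in PDGFA and 2019 ± 634 in EF and did not pass in limma (adjusted p = 0.0773, with a range of 0.0368 to 0.187), with a log2 fold change of -0.55, or -0.65 without EF 62. The secreted stress proteins Manf and Creld2 averaged 1741 ± 125 and 711 ± 39.0 in PDGFA and 2122 ± 757 and 927 ± 308 in EF, with limma adjusted p of 0.544 and 0.354. Their log2 fold changes were -0.22 and -0.32, or -0.53 and -0.61 without EF 62.

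With EF 62 left out, 8 ER-arm genes fell in limma and 3 rose, where 22.6% and 25.3% of the genes tested in that fit did so. The 8 were Eif2ak3, Hspa5, Hsp90b1, Hyou1, Pdia3, Pdia6, Manf and Creld2, with log2 fold changes between -1.02 and -0.44. The 3 were Dnajb9, Atf6 and Herpud1, at 1.38, 0.52 and 0.52. The groups did not overlap in 12 lower and 4 higher ER-arm genes, where 34.2% and 35.1% of all tested genes were so.

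Levels between genes were compared as normalized counts per kilobase of annotated exon. Calr and Canx were the highest members in PDGFA, at 5672 and 5066 per kilobase, and Nupr1 and Trib3 the lowest, at 3.13 and 11.6. In EF the same pair led, at 5140.0 and 4913 per kilobase, or 6329 and 5668 without EF 62. Shmt2 stood at 670.3 per kilobase in PDGFA and 2710.0 in EF, or 1953 in EF without EF 62. Mthfd1l stood at 84.5 per kilobase in PDGFA and 1074 in EF, or 899.6 in EF without EF 62. Nupr1 and Trib3 stood at 83.5 and 282 in EF, or 15.8 and 56.6 without EF 62. Some neighbours in this order differ by less than their SD over libraries, as do Pdia4 (2590.4 ± 629.9) and Pdia3 (2586 ± 105) in PDGFA.

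**Figure D5:**
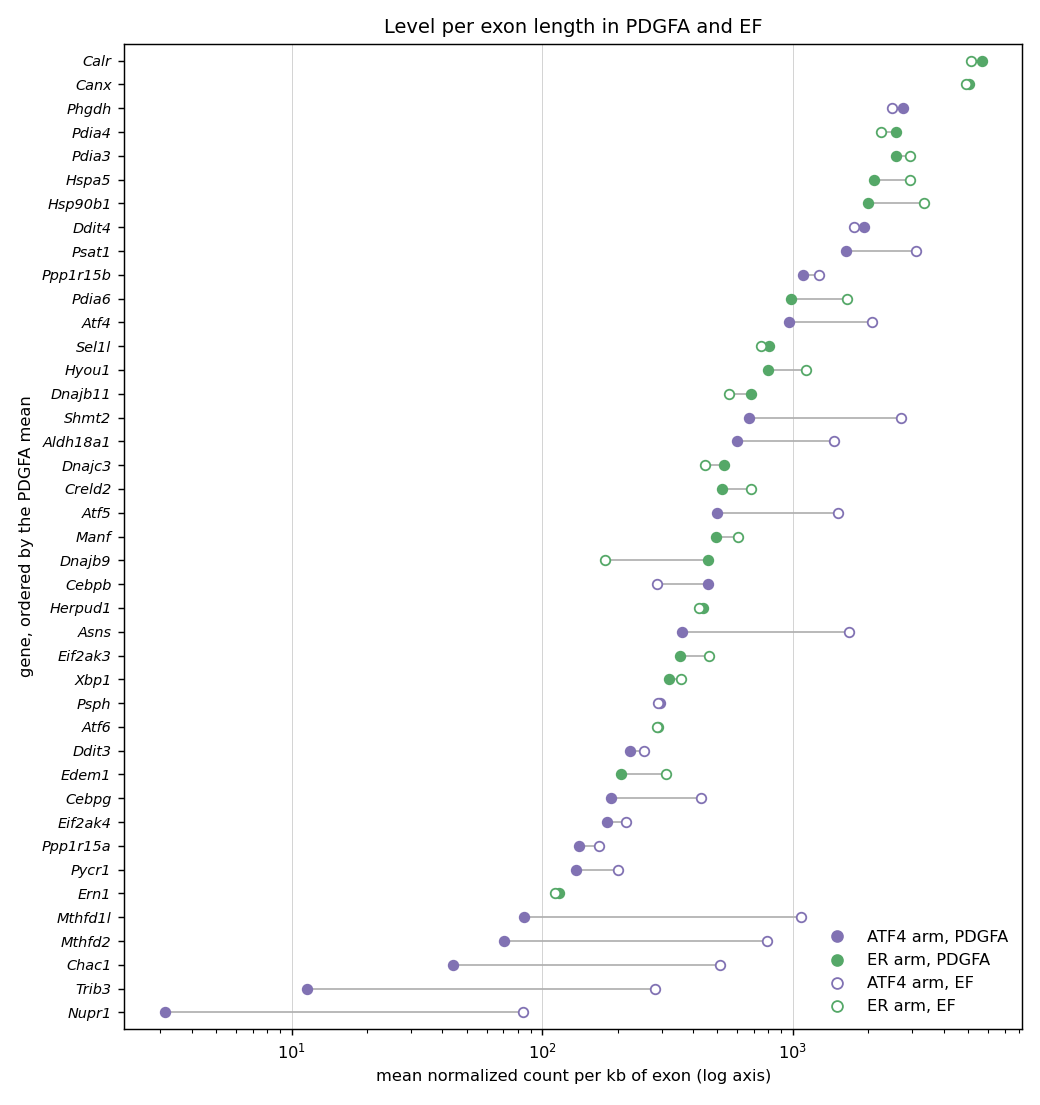
Mean normalized count per kilobase of exon on a log axis for the 41 genes, ordered by the PDGFA mean, with PDGFA filled and EF open. Calr and Canx are at the top with PDGFA means of 5672 and 5066 and EF means of 5140.0 and 4913, and Nupr1 is at the bottom with 3.13 in PDGFA and 83.5 in EF.

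Other genes of the same pathways were read for comparison. Their counts stand beside 18.0% of all tested genes that fell and 21.8% that rose with all libraries, and 22.6% and 25.3% without EF 62. Of 17 tested further targets of ATF4, 10 fell and 1 rose, or 10 and 3 without EF 62. Their median log2 fold change was -1.26, or -0.95 without EF 62, and 11 of the 17 were at least 2-fold higher in EF 62 than in both other EF libraries. Stc2, a secreted glycoprotein, averaged 89.2 ± 15.9 in PDGFA and 1378 ± 393 in EF (log2 fold change -3.91, SE 0.26, limma adjusted p = 4.84e-05), and Slc7a1, a transporter of basic amino acids, fell by 2.51 on the log2 scale. Klhl24, a ubiquitin ligase adaptor, rose by 0.83. Without EF 62 the log2 fold changes of Stc2, Slc7a1 and Klhl24 were -3.70, -1.999 and 0.94. Of 20 aminoacyl-tRNA synthetases, which load tRNAs with amino acids, 10 fell and 1 rose, with or without EF 62, and the median was -0.73, or -0.52 without it. Over the 6 fits without 1 library, 3 to 12 of them were called lower. Mars1 averaged 2374 ± 135 in PDGFA and 6656.5 ± 1576 in EF, and Vars 4251 ± 625 and 12377 ± 3558 (limma adjusted p = 0.000711 and 0.00172). Their log2 fold changes were -1.46 and -1.51, or -1.28 and -1.69 without EF 62. Dars was the one that rose (0.59, limma adjusted p = 0.0192), a call that was lost without PDGFA 68, PDGFA 69 or EF 68 (0.0547 to 0.0816, or up to 0.192 over all alternatives). A list of 12 genes held those of the eIF2 and eIF2B complexes, other eIF2alpha kinases and the separate factors Eif2a and Eif2d. Of these 12 genes 3 fell (1 with the mouse as a block) and 0 rose, or 3 and 1 without EF 62. Eif2s2 fell by 0.94 on the log2 scale, a call lost without PDGFA 68 (limma adjusted p = 0.0652) or PDGFA 69 (0.0664). Eif2b3 fell by 0.69, a call lost when any 1 of the PDGFA libraries or EF 69 was left out (0.0585 to 0.103) and with the mouse as a block (0.059). Without EF 62 the log2 fold changes of Dars, Eif2s2 and Eif2b3 were 0.57, -0.78 and -0.68.

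Of 15 other folate and glycine enzymes 6 fell and 0 rose, or 8 and 2 without EF 62. Shmt1, the cytosolic counterpart of Shmt2, averaged 97.2 ± 8.51 in PDGFA and 1856 ± 962 in EF, a log2 fold change of -4.12 (SE 0.34, limma adjusted p = 0.000118), and Sfxn1, a mitochondrial serine carrier, fell by 1.74. Without EF 62 their log2 fold changes were -4.42 and -1.81. Of 10 other proline and aspartate enzymes 2 rose and 2 fell, with or without EF 62. Oat, ornithine aminotransferase, rose by 1.40 and Got1, an aspartate aminotransferase, fell by 1.37, and without EF 62 their log2 fold changes were 1.10 and -1.60. Ass1, which joins aspartate to citrulline, had no read in EF and read 14.4, 62.1 and 78.8 in PDGFA 62, 68 and 69. Taking 3 reads over the EF group as the floor, its PDGFA mean was at least 46.2-fold higher. Of 35 other ER folding and degradation genes 11 fell (7 with the mouse as a block) and 4 rose, or 13 and 3 without EF 62. Fkbp11, a peptidyl-prolyl isomerase of secretory cells, averaged 19.7 ± 3.53 in PDGFA and 225 ± 22.6 in EF, and Pdia5 fell by 2.11 on the log2 scale. Os9, a lectin of ER degradation, rose by 1.12. Derl3, of the channel family for that pathway, had no read in EF either and read 10.2, 22.0 and 38.5 in PDGFA 62, 68 and 69. Its PDGFA mean was at least 21.0-fold higher on the same floor. Without EF 62 the log2 fold changes of Fkbp11, Pdia5 and Os9 were -3.54, -2.27 and 1.08. Of 25 genes of the translocon and the glycosylation complex 9 fell and 1 rose, or 16 and 1 without EF 62. Over the 6 fits without 1 library, 1 to 16 of them were called lower. Sec11c, of the signal peptidase, and Rpn2, of the oligosaccharyltransferase, fell by 1.28 and 0.87 on the log2 scale, and Sec62 rose by 0.52. Without EF 62 their log2 fold changes were -1.23, -1.10 and 0.45. Rpn2 lost its call without PDGFA 69 (limma adjusted p = 0.0535) and Sec62 without PDGFA 68 (0.0943) or PDGFA 69 (0.0941).

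Recovered totals were 34812800 to 39601349 reads in PDGFA and 27270246 to 30151469 in EF. Pairs of libraries correlated across genes, which are no replicates, at 0.981 to 0.991 in PDGFA, 0.949 to 0.970 in EF and 0.823 to 0.869 between groups. Trp53 transcripts were present at 1122, 988 and 1099 normalized counts in PDGFA and 2187, 1672 and 2383 in EF, and counts per gene do not show whether a deleted stretch is among them. Of 8 markers of neural progenitor cells 2 rose and 5 fell, with a summed level of 56683 to 62610 in PDGFA and 109064 to 213503 in EF. All 8 markers of oligodendrocytes rose, with sums of 285600 to 361511 in PDGFA and 2449 to 3864 in EF, and Mog was at 0 in EF. Of 7 astrocyte markers 5 rose, with sums of 147047 to 224123 in PDGFA and 36906 to 76514 in EF. Of 6 markers of oligodendrocyte precursors 2 rose and 2 fell, with sums of 161525 to 232529 in PDGFA. In EF 62, 68 and 69 these sums were 126671, 248895 and 112114, and the marker Gpr17 read 123, 3702 and 24.3. Of 6 neuronal markers 2 rose, with sums of 29200 to 39343 in PDGFA and 25059 to 30550 in EF. The microglial pair P2ry12 and Csf1r summed to 5.73 to 8.96 in PDGFA and 11.5 to 44.7 in EF. Endothelial Pecam1, Kdr and Flt1 summed to 439 to 699.7 in PDGFA and 97.2 to 456 in EF. Col1a1, Col1a2 and Rgs5 of fibroblasts and pericytes summed to 56.9 to 100.3 in PDGFA and 60.1 to 110.3 in EF. Cx3cr1, Aif1, Tmem119, C1qa, Cldn5, Cdh5, Dcn and Lum, of the same lists, had no entry under these symbols among the deposited values. The part of these cell types in the changes of the stress genes was not tested.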

How the data were processed

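The authors deposited normalized signal for 22057 genes in 6 libraries in 1 table; its values are read counts per gene over a size factor of the library. FastQC, STAR, DESeq2 and mm10 (GRCm38) stand, with no versions, in the submitters' processing notes. The strand setting is not given in the sources used here, nor is the annotation. RNA came from an RNeasy column and libraries from NEBNext kit E7770, which does not mark strand, per the labels' protocols. Each library's values were whole multiples, within 0.001, of its lowest nonzero value (100% of values), so whole reads were recovered (27270246 to 39601349 per library).

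Genes with a mean normalized count of at least 10 were tested (17068) as log2(normalized count + 1), which understates changes of low genes, with limma 3.58.1 in R 4.3.3 (group only, mean trend, two-sided, Benjamini-Hochberg over all tested genes, threshold 0.05). All limma adjusted p-values are from that fit unless an alternative is named. The recovered reads were tested with edgeR 4.0.16 and DESeq2 1.42.0. An SD is over 3 libraries; an SE is that of a log2 fold change. Libraries pair by the mouse number of their titles. Within mice 62, 68 and 69 the 2 libraries' deviations from their group means correlated at -0.091, 0.11 and -0.11, and a fit with the mouse as a block was one of the alternatives. How many cultures each mouse gave is not stated. Libraries of a group always differed by more than sampling noise (chi-square 21.9 to 155 for each degree of freedom). Members, lists, motifs and the rule for named genes were chosen with earlier results of these data known. That rule gave per-library values to Atf4, Ddit3, Xbp1, Hspa5 and the up to 6 called members of each arm with the smallest p in each direction, and named up to 2 risers and 2 fallers of each further list, of which 1 is not reported here; per-library values of other members were chosen after they were seen. Gene positions and exon lengths were looked up by symbol in GENCODE M21 (GRCm38), and promoters in RefSeq (GRCm38.p6). The limma fit was tested on simulated reads in which few genes changed and both groups had the same spread. In these data many genes changed and EF varied more than PDGFA, so that test does not cover these conditions.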

Additional observations from a re-analysis of the deposited data

How the results depend on the processing

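Leaving out libraries changed many counts. Over the 6 fits without 1 library, ATF4-arm genes called lower ran from 4 to 11 and called higher from 0 to 5, ER-arm genes called higher from 1 to 3 and lower from 0 to 8, and all genes called from 4118 to 8089 (2245 to 4271 higher, 1873 to 3818 lower). The extremes of the ATF4 arm were 4 without PDGFA 68 or PDGFA 69 and 11 without EF 62. In the further lists, calls of lower genes over these 6 fits ran from 6 to 11 for ATF4 targets and 3 to 12 for synthetases. They ran from 0 to 3 for eIF2 and eIF2B genes, 4 to 8 for folate and glycine enzymes and 1 to 2 for proline and aspartate enzymes. For ER folding and degradation genes they ran from 4 to 13, and for translocon and glycosylation genes from 1 to 16. Without both libraries of mouse 68, 5 ATF4-arm genes were called lower, and 3276 genes in all (1943 higher, 1333 lower). In the ER arm 4 of 20 genes were called lower under total count scaling, where 3515 of all tested genes were. With DESeq2 3 of 20 were, where 21.9% of all tested genes were. Total count scaling shifted the median of all genes by -0.063 (log2), and the share of higher among all calls was 48.6% under it and 54.7% with the deposited scaling.

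Several members with no call with all libraries changed sign. Without both libraries of mouse 68 the log2 fold change was -0.16 for Ddit3, -0.076 for Phgdh, -0.0052 for Atf6, -0.029 for Ern1 and -0.072 for Herpud1, and for Ddit3 it was -0.21 with edgeR and -0.21 with DESeq2. Over the fits without 1 library, log2 fold changes ran from -0.41 to 0.36 for Ppp1r15a, -0.20 to 0.78 for Ddit3, -0.11 to 0.60 for Psph, -0.53 to 0.56 for Pycr1 and -0.17 to 0.38 for Ddit4. In the ER arm they ran from -0.14 to 0.52 for Atf6, -0.024 to 0.29 for Ern1, -0.16 to 0.45 for Calr, -0.16 to 0.23 for Canx, -0.44 to 0.090 for Pdia3, -0.092 to 0.44 for Pdia4, -0.030 to 0.52 for Herpud1, -0.039 to 0.22 for Sel1l and -0.53 to 0.021 for Manf. The cause was not tested. With the mouse as a block 11 ATF4-arm genes were called lower; beyond Cebpg and Chac1 it changed no call of a member. P2ry12 and Pecam1, which were called lower (limma adjusted p = 0.0484 and 0.029), were not called with the block (0.059 and 0.0713). Depth limits Nupr1 and Trib3 most, at under 30 normalized counts per PDGFA library.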
